A study of Mus musculus with 6 samples.

Results

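The enzymes that cut, spare and crosslink the extracellular matrix of fat were followed in epididymal adipose tissue of mice that lack the RNA-binding protein HuR in adipocytes. Members were taken by name from the deposited gene table, as the Mmp, Timp, Adam, Adamts, Adamtsl, Lox, Loxl and Plod genes without Mmp12, which gave 55 of 13116 genes. HuRAKO mice carried HuRflox/flox:AdipoQ-Cre+ and control mice HuRflox/flox:AdipoQ-Cre-, so the floxed alleles were common to both groups and only the Cre differed. All were C57BL/6 and had received a high-fat diet for 16 weeks from 8 weeks of age, with 3 mice in each group. Cre was driven by the adiponectin promoter and thus acted in adipocytes, while RNA came from the whole fat pad, with its vessels, immune cells, fibroblasts and covering mesothelium. In such bulk samples fewer cells of a type and less RNA per cell cannot be told apart. Values are FPKM, fragments counted on a gene scaled to its length and to the depth of the library. Levels of different genes thus depend on the length used for each. Mmp14, for example, had a mean of 15.2 FPKM as a gene and 33.8 FPKM as transcript Mmp14-201. For Mmp2 and Mmp2-201 these means were 26.1 and 28.2 FPKM. Rankings, shares and ratios between genes below hold for the gene values only.

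As background, fat cells are wrapped in a net of collagens and proteoglycans that has to be opened when the cells enlarge and rebuilt afterwards. Matrix metalloproteinases (Mmp) cut collagens and other matrix proteins, Adam proteases release proteins from the cell surface, and Adamts enzymes cut proteoglycans or trim procollagens. Timp proteins block these proteases, whereas Plod enzymes and lysyl oxidases (Lox and Loxl) prepare and form the crosslinks that stabilise collagen. HuR, encoded by Elavl1, binds AU-rich and U-rich stretches of mRNAs, many of them in the 3′-UTR, and is known for prolonging the life of the mRNAs it binds.

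Before the members are described, some facts on the samples are needed. Elavl1 was not lower in the HuRAKO tissue (5.18 ± 0.489 FPKM in HuRAKO and 4.59 ± 0.576 FPKM in control mice, SD, n = 3, exact permutation p = 0.3), so this table gives no check of the labels, by which the groups are named throughout. Levels of the deleted exons and of adipocytes alone were not analysed here. Summed FPKM per mouse was 250270 to 264055. The adipocyte markers Adipoq, Plin1, Cidec, Lep, Fabp4 and Pparg summed to 4090 to 4580 FPKM in HuRAKO mice. In control mice 1, 2 and 3 they summed to 4510, 4350 and 3210 FPKM, lowest in control replicate 3. Such levels fit fat tissue. Control replicate 3 stood apart from all others on the first principal component of all tested genes (41.1% of the variance), at 48.3, whereas the other 5 mice lay between -14.5 and -3.09. It had the highest value in 20 of 54 tested members and in 27.1% of all tested genes.

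Across the members, HuRAKO and control tissue differed little, and the few that differed were spread over several families. A gene was called here when its unadjusted p from limma was under 0.05 and its fold over 1.5, the thresholds of the study, with the fold taken on the log2(FPKM + 1) scale, which understates the change of low genes. Of the 55 members, 54 had a mean of at least 0.5 FPKM and were tested. Adamts3, a procollagen-trimming enzyme, stayed below this limit (0.268, 0.187 and 0.366 FPKM in HuRAKO, against 0.658, 0.310 and 0.886 FPKM in control mice). Timp4, Adamtsl2 and Adam8 were called higher in HuRAKO mice, which is 5.56% of the tested members beside 1.27% of all tested genes. Mmp9 and Adamtsl1 were called lower, which is 3.70% of the members beside 1.35% of all genes. An unadjusted p under 0.05 alone was reached by 7 members (13% beside 8.03% of all genes), with Adamts9 and Mmp23 added to the 5 above. Without HuRAKO replicate 2 the number called lower was 4, since Mmp23 and Adam23 joined, and without any other single mouse it was 2 or 3.

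None of the 54 members passed an adjusted p of 0.05 over all genes (limma, Benjamini-Hochberg). The smallest adjusted p among them was 0.339, and 1 of 12847 genes (0.00778%) passed. With 3 mice against 3 the exact permutation test cannot go below p = 0.1 for a single gene. HuRAKO and control mice did not overlap in 9 members. Timp4, Adamtsl2, Adamts9, Adamts1 and Adam15 had all HuRAKO mice above all control mice (9.26% of the members, beside 7.04% of all genes), and Mmp9, Mmp23, Adamtsl1 and Loxl3 had all below (7.41%, beside 7.68%). These shares lie near those of all genes. The median log2 fold change was 0.01 over the members and -0.01 over all tested genes, with 28 members above 0 and 26 below.

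**Figure D1:**
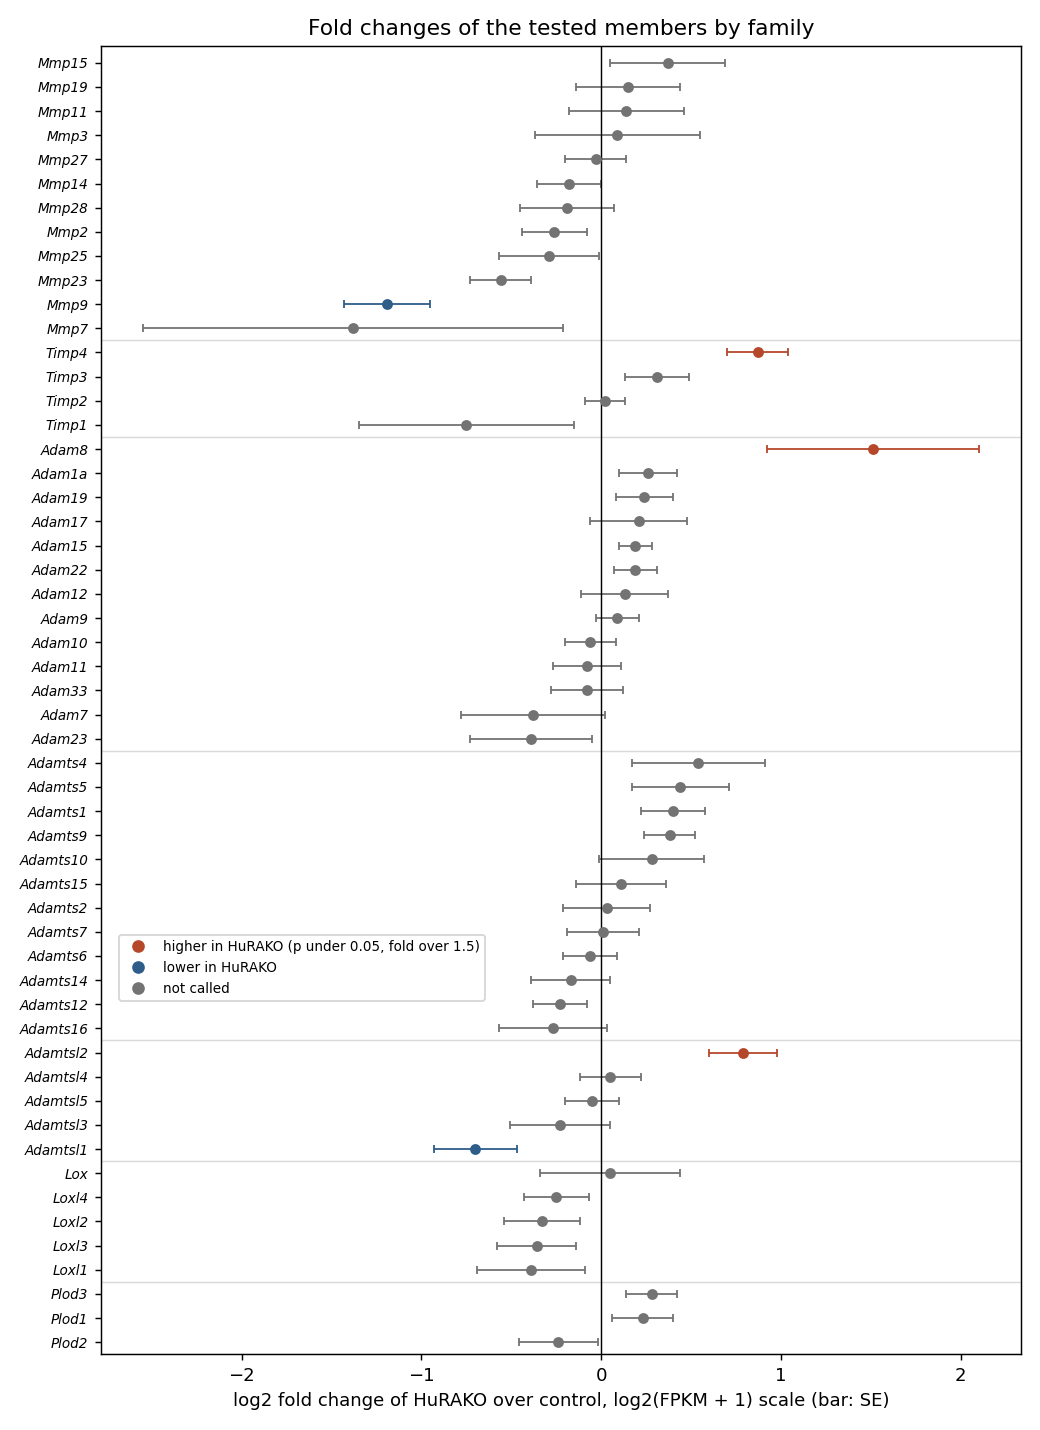
Log2 fold change of HuRAKO over control mice on the log2(FPKM + 1) scale (x axis) for each of the 54 tested members (rows, grouped by family), as the limma estimate with its SE. Adam8, Timp4 and Adamtsl2 lie on the right and Mmp9 and Adamtsl1 on the left, and Mmp7 has the widest SE (1.17).

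Since HuR reads AU-rich sequence, ATTTA pentamers in the 3′-UTRs of members are shown first, as a description. They do not single these genes out, since ATTTA occurred in 69.8% of all tested genes with an annotated 3′-UTR. GENCODE M21 (GRCm38, the build of the deposited tables) gave the longest 3′-UTR of each gene, which was searched on the transcribed strand for ATTTA and for the longer TTATTTATT, which contains it. The windows below are those around TTATTTATT in each tested member that has it, plus 1 ATTTA window each of Timp4 and Adamtsl2. They run 5′ to 3′ with ATTTA in capitals.
Mmp9, + strand, chr2:164955294-164955323: tccagcccttttATTTAttatgtatgaggt
Adamtsl1 near the stop codon, + strand, chr4:86426023-86426052: tttcttccttttATTTATTTAtttgcccct
Adamtsl1 at the transcript end, + strand, chr4:86428363-86428385: ataatacagcttATTTATTTAaa
Adamts9, - strand, chr6:92773870-92773899: atgtttgaaattATTTAttgtgatgtaata
Adamts5, - strand, chr16:85859712-85859741: tgtgatgaaattATTTAttcttATTTAaca
Timp4, - strand, chr6:115244796-115244825: cttcaatcaaccATTTAtcttttccttcga
Adamtsl2, + strand, chr2:27108955-27108981: taaagtggctgtATTTAtgggagcata

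Members with and without these letters were found on both sides of 0. Mmp9 had 5 ATTTA in a 3′-UTR of 944 bases, with TTATTTATT once, and Adamtsl1 had 9 in 2437 bases, with TTATTTATT 3 times, of which 2 overlap. Both were called lower in HuRAKO mice. Adamts9 and Adamts5 also held TTATTTATT once each, among 4 ATTTA in 1883 bases and 21 ATTTA in 6437 bases, and had log2 fold changes of 0.38 and 0.44. Of the members called higher, Timp4 had 5 ATTTA in 4394 bases, Adamtsl2 had 1 in 542 bases and Adam8 had 0 in 545 bases. Over all tested members ATTTA occurred in 41 of 54 (75.9%), beside 69.8% of the 12706 tested genes with an annotated 3′-UTR, and TTATTTATT in 4 of 54 (7.41%), beside 7.90%. Member 3′-UTRs were longer, with a median of 1631 bases beside 1161 bases over all genes. The 3′-UTR of Adamtsl1 belongs to transcript Adamtsl1-209, whose FPKM was not analysed here. A match of letters is a description of the sequence and was not compared with HuR binding.

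Among the inhibitors, Timp4 was higher in HuRAKO than in control fat, and the other Timp genes were not called. Timp4 inhibits several metalloproteinases and is the Timp with the most restricted tissue range, including fat and heart. It had 64.3, 56.0 and 48.1 FPKM in HuRAKO mice 1, 2 and 3, against 27.7, 36.6 and 26.5 FPKM in control mice 1, 2 and 3. The lowest HuRAKO mouse lay above the highest control mouse. This gave 56.1 ± 8.10 FPKM in HuRAKO and 30.3 ± 5.51 FPKM in control mice (SD, n = 3) and a log2 fold change of 0.87 ± 0.17 (SE, limma unadjusted p = 0.00174, adjusted p = 0.339). Timp4 (ENSMUSG00000030317.8) lies on chromosome 6 at 115241892 to 115252205 on the - strand, and its exons overlap those of Syn2 on the other strand. Syn2, a synapsin, had 1.45, 1.64 and 2.56 FPKM in HuRAKO, against 1.27, 1.63 and 1.14 FPKM in control mice, far below Timp4. Leaving out any single mouse left Timp4 called, with log2 fold changes of 0.77 to 1.01. Of the 6 adipocyte markers 1, Lep, was called higher, and their sums overlapped. The endothelial and the smooth muscle marker sums given with the Adamts genes did not overlap. They were highest in HuRAKO mouse 2, and Timp4 in HuRAKO mouse 1. The part of these cell types in the Timp4 result was not tested.

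The other inhibitors give the frame in which Timp4 stood. Timp2, which besides inhibiting Mmp2 helps to activate it, was the highest member of all with 218, 204 and 228 FPKM in HuRAKO, against 220, 192 and 229 FPKM in control mice, and 0.934% of tested genes had a higher mean. The ranges of the groups coincided almost completely, at a log2 fold change of 0.02 ± 0.11 (SE). Timp3, which binds to the matrix and also inhibits Adam and Adamts proteases, had 111, 88.8 and 104 FPKM in HuRAKO, against 63.4, 94.8 and 88.9 FPKM in control mice. Its groups overlapped, with control mouse 1 lowest (log2 fold change 0.31 ± 0.18, SE, limma unadjusted p = 0.134, adjusted p = 0.741). Timp1, the inducible inhibitor found raised in inflamed and fibrotic tissue, had 8.69, 6.25 and 5.70 FPKM in HuRAKO, against 8.68, 5.56 and 34.3 FPKM in control mice. Only control replicate 3 was high, and the other 5 mice shared the range 5.56 to 8.69 FPKM.

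As a share of the summed FPKM of the 4 inhibitors, Timp4 made up 16.0%, 15.8% and 12.5% in HuRAKO, against 8.66%, 11.1% and 6.99% in control mice. Timp2 made up 54.2%, 57.5% and 59.1% in HuRAKO, against 68.8%, 58.4% and 60.5% in control mice. The Timp4 share did not overlap between the groups, as Timp4 itself did not, and the Timp2 share did. These shares restate the FPKM values above and are no separate result. The summed Timp FPKM was 402, 355 and 386 in HuRAKO, against 320, 329 and 379 in control mice, and also overlapped.

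**Figure D2:**
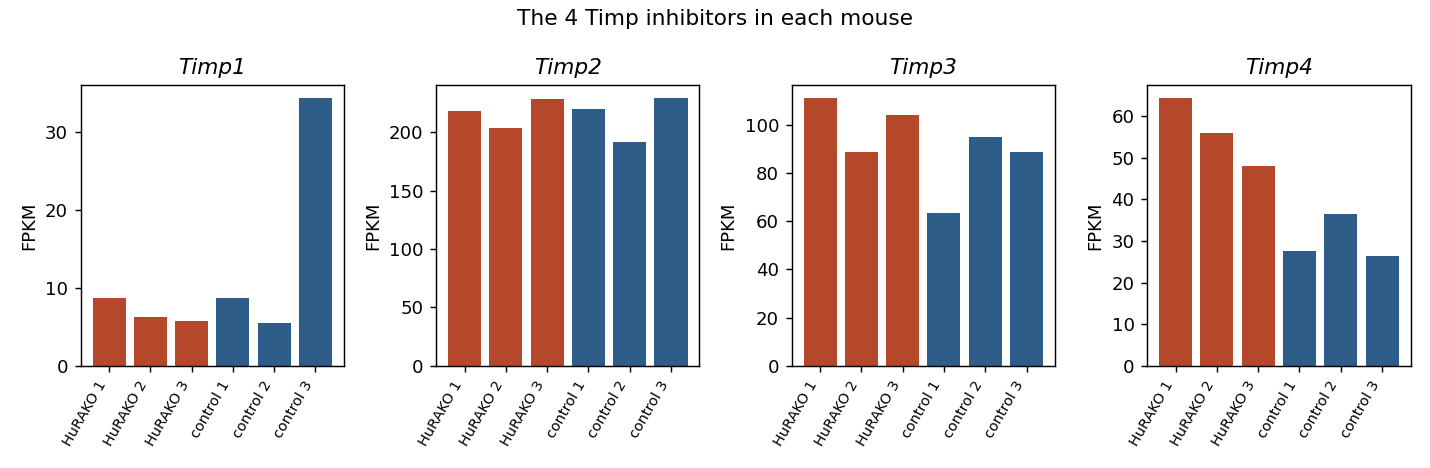
FPKM (y axis, from 0, scaled for each gene) of the 4 Timp genes in each mouse, with the HuRAKO mice as the 3 left bars and the control mice as the 3 right bars. Timp4 is higher in every HuRAKO mouse (48.1 to 64.3 FPKM) than in any control mouse (26.5 to 36.6 FPKM), and Timp1 stands out in control replicate 3 only.

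Among the metalloproteinases, the gelatinase Mmp9 was lower in HuRAKO fat, and no other Mmp of the 12 was called. Mmp9 cuts denatured collagen and the collagen of basement membranes and is made in quantity by neutrophils and macrophages. It had 2.65, 4.84 and 2.22 FPKM in HuRAKO, against 9.21, 6.93 and 9.07 FPKM in control mice. The groups were separated by a gap between HuRAKO mouse 2 and control mouse 2. The means were 3.24 ± 1.41 FPKM in HuRAKO and 8.41 ± 1.28 FPKM in control mice (SD, n = 3), with a log2 fold change of -1.19 ± 0.24 (SE, limma unadjusted p = 0.00224, adjusted p = 0.377). Mmp9 (ENSMUSG00000017737.2, chromosome 2, 164940780 to 164955850, + strand) remained called in every alternative, with log2 fold changes of -1.45 to -1.02.

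Marker sums of cell types are given beside Mmp9, and their part in its result was not tested. The general macrophage markers Adgre1, Cd68, Csf1r, Mrc1, Cd14 and Ptprc, of which 0 of 6 were called, summed to 217 to 380 FPKM in HuRAKO and 184 to 485 FPKM in control mice. The neutrophil markers S100a8 and S100a9 summed to 6.23, 9.16 and 20.0 FPKM in HuRAKO, against 12.3, 3.08 and 22.0 FPKM in control mice, and Ly6g and Mpo were not analysed here. Markers of lipid-associated macrophages, given with Adam8 below, were partly higher in HuRAKO mice. The mesothelial markers Msln, Upk3b, Krt19, Krt8, Wt1 and Lrrn4 had 5 of 6 called lower and did not overlap in their sums of 91.5, 121 and 127 FPKM in HuRAKO, against 166, 199 and 263 FPKM in control mice. Mmp9, Mmp23, Adamtsl1 and Loxl3 share this direction because they are the members without overlap on that side. Within the HuRAKO group the mesothelial sum and Adamtsl1 were highest in mouse 3, and Mmp9, Mmp23 and Loxl3 in mouse 2. Within the control group the sum, Mmp23, Adamtsl1 and Loxl3 were highest in mouse 3, and Mmp9 in mouse 1. The part of mesothelial cells in these results was not tested.

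Mmp23, a membrane-anchored member without a hemopexin domain, followed the direction of Mmp9 but missed the fold on the log2(FPKM + 1) scale. Its ratio of mean FPKM was 0.652, and with a pseudocount of 0.1 it was called (log2 fold change -0.6). It had 11.9, 12.5 and 10.3 FPKM in HuRAKO, against 15.4, 15.8 and 22.1 FPKM in control mice. All HuRAKO mice lay below all control mice, with control replicate 3 highest, at a log2 fold change of -0.56 ± 0.17 (SE, limma unadjusted p = 0.0129, adjusted p = 0.487). Mmp2, the other gelatinase, was the highest Mmp by gene FPKM, though Mmp14-201 was above Mmp2-201 by transcript FPKM. It had 25.2, 20.3 and 25.1 FPKM in HuRAKO, against 26.1, 24.0 and 36.1 FPKM in control mice. Control mouse 2 lay within the HuRAKO range. Mmp14, the membrane-bound collagenase that activates Mmp2, had 12.1, 13.6 and 16.7 FPKM in HuRAKO, against 16.0, 13 and 19.7 FPKM in control mice, again with overlap. Both Mmp2 and Mmp14 had log2 fold changes below 0 (-0.26 ± 0.18 and -0.18 ± 0.18, SE). Mmp14, Mmp15 and Mmp25, grouped as membrane-bound without Mmp23, ranged from -0.29 to 0.37.

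The remaining Mmp genes moved either way within the spread of the mice. Mmp19 (20.1, 12 and 26.0 FPKM in HuRAKO, against 19.3, 13.3 and 17.6 FPKM in control mice) and Mmp28 (12.4, 18.3 and 10.9 FPKM in HuRAKO, against 19.2, 17.6 and 11 FPKM in control mice) overlapped throughout. The stromelysins Mmp3 and Mmp11, which cut proteoglycans, laminins and other noncollagen substrates or serpins, had log2 fold changes of 0.09 ± 0.46 and 0.14 ± 0.32 (SE). Mmp7, matrilysin, an enzyme of glandular epithelium named here after its values were seen, varied most, with 2.89 and 0.432 FPKM and a listed 0 in HuRAKO mice 1, 2 and 3, against 2.80, 24.8 and a listed 0 FPKM in control mice 1, 2 and 3. Its fold was set by control mouse 2 (log2 fold change -1.38 ± 1.17, SE). Adam7, an epididymal member of the Adam family, had 1.01, 0.142 and 0 FPKM in HuRAKO, against 1.14, 1.34 and 0 FPKM in control mice, and was also listed at 0 in HuRAKO replicate 3 and control replicate 3. Without control replicate 3 both Mmp7 and Adam7 were called lower.

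The sums of inhibitors and metalloproteinases were set side by side as a description, without a test. They rest on gene values, which depend on the gene lengths used. The summed FPKM of the 12 Mmp genes was 101, 105 and 121 in HuRAKO, against 126, 133 and 136 in control mice. The Timp sum divided by the Mmp sum was 4, 3.39 and 3.18 in HuRAKO, against 2.53, 2.47 and 2.79 in control mice, without overlap. This ratio depends on Mmp12, the macrophage elastase that the name rule left out. Mmp12 had 14.1, 3.84 and 29.8 FPKM in HuRAKO, against 2.20, 1.80 and 0.790 FPKM in control mice. With it the ratio was 3.51, 3.27 and 2.55 in HuRAKO, against 2.49, 2.44 and 2.77 in control mice, and the groups overlapped. Mmp7 gave 24.8 FPKM of the Mmp sum in control mouse 2. Without Mmp7 and Mmp12 the ratio was 4.12, 3.4 and 3.18 in HuRAKO, against 2.59, 3.03 and 2.79 in control mice. The groups then did not overlap, with HuRAKO mouse 3 just above control mouse 2.

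**Figure D3:**
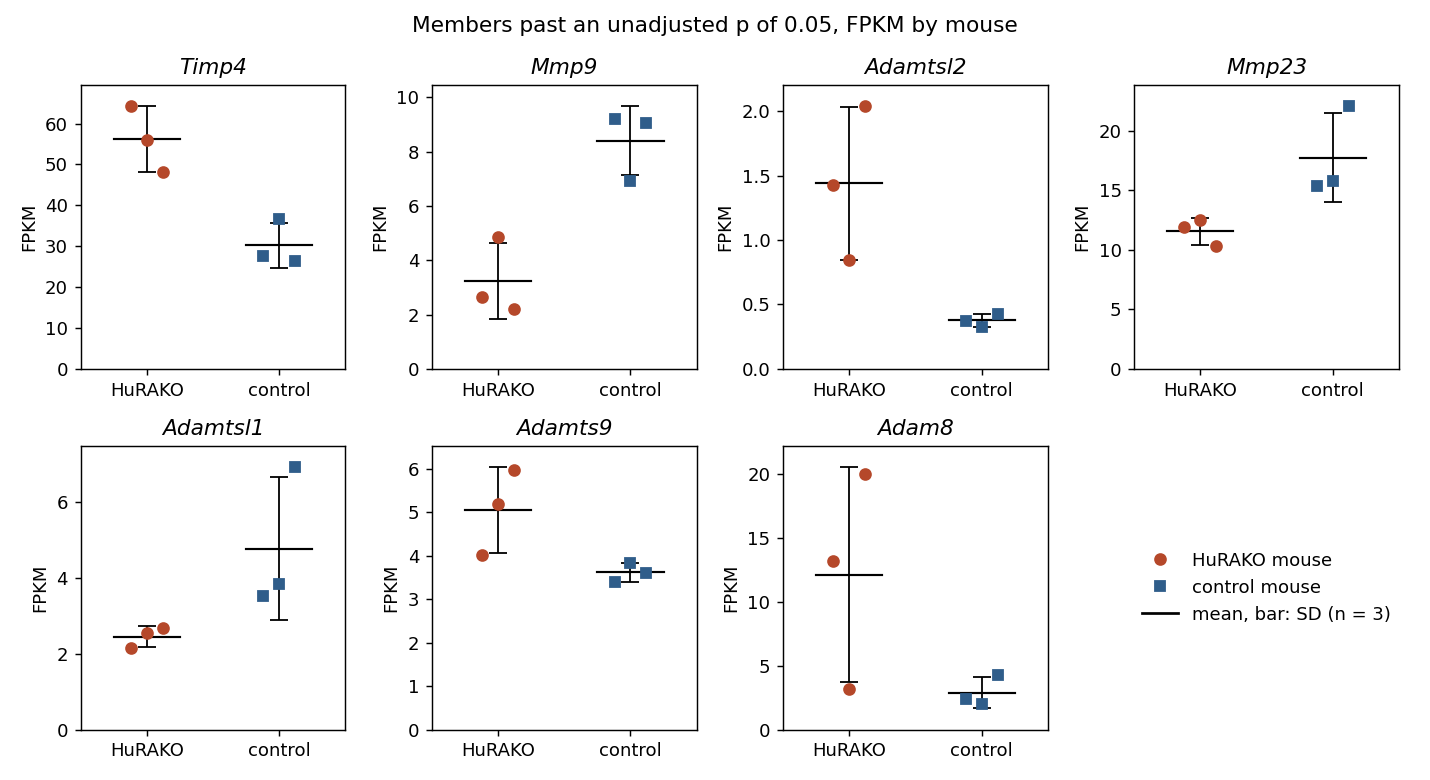
FPKM (y axis) of the 7 members with an unadjusted p under 0.05, with 1 point for each mouse (circles, HuRAKO; squares, control), a line at the mean and bars of 1 SD (n = 3). Only Adam8 has overlapping groups, since HuRAKO mouse 2 (3.22 FPKM) lies below control mouse 3 (4.28 FPKM).

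In the Adam family, Adam8 had the largest positive fold of all members, and it rested on 2 of the 3 HuRAKO mice. Adam8 is a catalytically active sheddase of myeloid cells. It had 13.2, 3.22 and 20.0 FPKM in HuRAKO, against 2.40, 2.03 and 4.28 FPKM in control mice. HuRAKO mice 1 and 3 were far above every control mouse, whereas HuRAKO mouse 2 lay within the control range. The means were 12.1 ± 8.42 FPKM in HuRAKO and 2.91 ± 1.21 FPKM in control mice (SD, n = 3), with a log2 fold change of 1.51 ± 0.59 (SE, limma unadjusted p = 0.0402, adjusted p = 0.607). The call was lost without HuRAKO replicate 1 (limma unadjusted p = 0.117, adjusted p = 0.816), HuRAKO replicate 3 (unadjusted p = 0.116, adjusted p = 0.881), control replicate 1 (unadjusted p = 0.0962, adjusted p = 0.721) or control replicate 2 (unadjusted p = 0.107, adjusted p = 0.815). It was also lost without variance moderation (limma unadjusted p = 0.11, adjusted p = 0.706), and over all alternatives the adjusted p was 0.319 to 0.881.

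Some markers of the macrophages that take up lipid around dying adipocytes were also higher in HuRAKO mice. Gpnmb, a glycoprotein of lysosome-rich macrophages, had 44.5, 14.6 and 88.2 FPKM in HuRAKO, against 6.28, 8.91 and 9.98 FPKM in control mice. Itgax, which encodes CD11c, had 10.3, 3.96 and 15.1 FPKM in HuRAKO, against 2.40, 1.77 and 2.96 FPKM in control mice. Both were lowest in mouse 2 of the HuRAKO group, as Adam8 was. Fabp5, a fatty acid-binding protein, had 48.8, 42.6 and 40.5 FPKM in HuRAKO, against 26.7, 31.7 and 24.1 FPKM in control mice, and was lowest in HuRAKO mouse 3. Of the whole list (Trem2, Cd9, Gpnmb, Itgax, Lpl and Fabp5) 3 of 6 were called higher. The sum was 574 to 876 FPKM in HuRAKO and 436 to 713 FPKM in control mice. Most of it came from Lpl, a lipase also made by adipocytes, and without Lpl the sum was 149, 99.0 and 196 FPKM in HuRAKO, against 68.8, 76.1 and 80.1 FPKM in control mice. The part of these cells in the Adam8 result was not tested.

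The other Adam genes were close between the groups. Adam15, an adhesion-linked protease with an integrin-binding motif, had 33.5, 34.5 and 35.0 FPKM in HuRAKO, against 30.3, 30.6 and 28.8 FPKM in control mice. The mice of each group lay close together and the groups did not overlap, while the difference was small (log2 fold change 0.19 ± 0.09, SE, limma unadjusted p = 0.0772, adjusted p = 0.670). Adam10 and Adam17, the main sheddases of Notch and of tumour necrosis factor, had log2 fold changes of -0.06 ± 0.14 and 0.21 ± 0.27 (SE). Adam17 varied more in control mice, with 7.99, 7.28 and 7.38 FPKM in HuRAKO, against 4.22, 5.87 and 10.3 FPKM in control mice. Adam9, the highest of the family, had 49.9, 46.0 and 44.3 FPKM in HuRAKO, against 46.8, 38.6 and 46.5 FPKM in control mice. Of the 13 Adam genes tested, 8 had log2 fold changes above 0 and 5 below. Adam11, Adam22 and Adam23, which lack protease activity, ranged from -0.39 to 0.19, as given here after their values were seen, and the 8 with an active protease domain from -0.08 to 1.51.

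The Adamts enzymes that cut proteoglycans had log2 fold changes above 0 in all 5 cases, with 0 called. Of all 12847 tested genes, 6007 were above 0. Adamts1, Adamts4, Adamts5, Adamts9 and Adamts15 cut aggrecan or versican, the large proteoglycans of the matrix. Adamts9 had 4.01, 5.19 and 5.97 FPKM in HuRAKO, against 3.39, 3.84 and 3.61 FPKM in control mice. The groups did not overlap, with a log2 fold change of 0.38 ± 0.14 (SE, limma unadjusted p = 0.0365, adjusted p = 0.592), under a fold of 1.5. Adamts1 had 16.3, 16.0 and 24.9 FPKM in HuRAKO, against 13.4, 14.7 and 13.5 FPKM in control mice. Its groups did not overlap either, though HuRAKO mouse 3 alone was well above the rest (log2 fold change 0.40 ± 0.18, SE, limma unadjusted p = 0.0666, adjusted p = 0.650).

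Adamts5, the main aggrecanase of mouse cartilage and the highest Adamts here, had 39.7, 60.6 and 36.4 FPKM in HuRAKO, against 45.2, 26.3 and 28.9 FPKM in control mice. Control mouse 1 lay within the HuRAKO range, and without it Adamts5 was called higher (log2 fold change 0.67, limma unadjusted p = 0.0364, adjusted p = 0.616). Adamts4, which cuts aggrecan as well, was even in control mice and uneven in HuRAKO mice, with 1.47, 4.24 and 6.12 FPKM in HuRAKO, against 2.09, 2.16 and 2.10 FPKM in control mice. The proteoglycan-cutting group had a median log2 fold change of 0.40, beside -0.01 over all tested genes. Its lowest was that of Adamts15 (0.11 ± 0.25, SE). These genes were measured in the same mice, and no set test was run. Endothelial markers (Pecam1, Cdh5, Kdr, Tek and Vwf, 2 of 5 called higher) summed to 181, 260 and 188 FPKM in HuRAKO, against 161, 144 and 123 FPKM in control mice. Smooth muscle and pericyte markers were Acta2, Myh11, Tagln, Rgs5, Pdgfrb and Cspg4, of which 2 of 6 were called higher. They summed to 291, 453 and 342 FPKM in HuRAKO, against 230, 174 and 170 FPKM in control mice. The 2 called were Acta2 (means of 217 FPKM in HuRAKO and 90.3 FPKM in control mice) and Tagln (58.5 and 33.8 FPKM). Myh11, Rgs5, Pdgfrb and Cspg4 overlapped between the groups, with log2 fold changes of -0.15 to 0.42. Both the endothelial and the smooth muscle sum were above all control mice in every HuRAKO mouse. Timp4, Adamtsl2, Adamts9, Adamts1 and Adam15 share this pattern because they were picked for lack of overlap in that direction. Within the HuRAKO group both sums were highest in mouse 2, Timp4 in mouse 1 and the others of these members in mouse 3. The part of these cell types in the values of the members was not tested.

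Of the procollagen-trimming enzymes 2 were tested, 1 with a log2 fold change above 0 and 1 below. Adamts2, which removes the aminopropeptide of fibrillar procollagens, had 21.5, 17.3 and 16.1 FPKM in HuRAKO, against 16.7, 13.2 and 25.2 FPKM in control mice. The control mice spanned the whole HuRAKO range (log2 fold change 0.03 ± 0.24, SE). Adamts14, of the same function, had 1.25, 1.47 and 1.07 FPKM in HuRAKO, against 1.52, 0.888 and 2.42 FPKM in control mice (log2 fold change -0.17 ± 0.22, SE). Adamts10, which binds fibrillin microfibrils, and Adamts12, which cuts cartilage oligomeric matrix protein, had log2 fold changes of 0.28 ± 0.29 and -0.23 ± 0.15 (SE). With Adamts6, Adamts7 and Adamts16 they spanned -0.27 to 0.28, and none was called.

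The Adamtsl proteins resemble Adamts enzymes but lack the protease domain, and here 1 of 5 was called higher and 1 of 5 lower, beside 1.27% and 1.35% of all genes. Adamtsl2, which binds fibrillin and latent TGF-β binding protein and is mutated in geleophysic dysplasia in humans, had 1.43, 0.846 and 2.04 FPKM in HuRAKO, against 0.375, 0.329 and 0.429 FPKM in control mice. The groups were far apart at a low level (log2 fold change 0.79 ± 0.19, SE, limma unadjusted p = 0.00476, adjusted p = 0.415). The ratio of the mean FPKM was 3.81, which the log2(FPKM + 1) scale understates. It remained called without any single mouse, with log2 fold changes of 0.62 to 0.98.

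Adamtsl1, also called punctin, a matrix-deposited glycoprotein, had 2.15, 2.54 and 2.68 FPKM in HuRAKO, against 3.54, 3.84 and 6.94 FPKM in control mice. The groups did not overlap, and control replicate 3 was much above the others (log2 fold change -0.70 ± 0.23, SE, limma unadjusted p = 0.0198, adjusted p = 0.518). Without control replicate 3 the log2 fold change was -0.44, under a fold of 1.5, and the gene was no longer called. Without HuRAKO replicate 1 it was not called either (limma unadjusted p = 0.0636, adjusted p = 0.742). Adamtsl4 and Adamtsl5, fibrillin-binding proteins, had 9.98, 7.58 and 8.15 FPKM and 3.02, 3.38 and 4.61 FPKM in HuRAKO, against 6.66, 8.36 and 9.81 FPKM and 3.59, 3.79 and 4.02 FPKM in control mice. Both overlapped. Adamtsl3 had a log2 fold change of -0.23 ± 0.28 (SE).

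The lysyl oxidases, which oxidise lysines of collagen and elastin so that crosslinks can form, were not called. Lox, the founding enzyme, had 23.8, 69.3 and 29.1 FPKM in HuRAKO, against 39.3, 29.3 and 38.1 FPKM in control mice. HuRAKO mouse 2 was the highest and HuRAKO mouse 1 the lowest of all, and the log2 fold change was -0.41 without HuRAKO replicate 2 and 0.05 ± 0.39 (SE) with all mice. Loxl1, which is needed for elastic fibres, had 36.8, 44.5 and 25.8 FPKM in HuRAKO, against 41.8, 34.4 and 67.7 FPKM in control mice. Loxl2, which crosslinks basement membrane collagen, had 10.7, 12.6 and 10.2 FPKM in HuRAKO, against 14.0, 10.7 and 19.3 FPKM in control mice. In both, control mouse 2 lay within the HuRAKO range and control replicate 3 was highest.

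Loxl3 was the only lysyl oxidase without overlap. It had 2.97, 3.28 and 3.05 FPKM in HuRAKO, against 3.45, 3.36 and 6.47 FPKM in control mice. The gap between HuRAKO mouse 2 and control mouse 2 was small, and the difference came mainly from control replicate 3 (log2 fold change -0.36 ± 0.22, SE, limma unadjusted p = 0.152, adjusted p = 0.755). Its exons overlap those of Htra2 on the other strand. Loxl4 had 1.55, 1.34 and 0.808 FPKM in HuRAKO, against 1.66, 1.22 and 2.11 FPKM in control mice. All 4 Loxl genes had log2 fold changes below 0 and their highest value in control replicate 3. The fibroblast and progenitor markers Pdgfra, Dpp4, Pi16, Cd34, Dcn, Col1a1 and Col3a1 (0 of 7 called) were likewise highest there in sum, with 481 to 534 FPKM in HuRAKO and 607, 521 and 846 FPKM in control mice, and their part in these values was not tested.

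The Plod enzymes hydroxylate collagen lysines, the step before crosslinking, and none was called. Plod3, which also transfers sugars to hydroxylysine, had 27.1, 20.3 and 24.5 FPKM in HuRAKO, against 19.9, 17.8 and 20.7 FPKM in control mice. HuRAKO mouse 2 lay just below control mouse 3 (log2 fold change 0.28 ± 0.14, SE, limma unadjusted p = 0.0827, adjusted p = 0.677). Plod1 had 17.7, 14.3 and 19.0 FPKM in HuRAKO, against 14.3, 11.7 and 17.1 FPKM in control mice. Plod2, which hydroxylates the collagen telopeptides, had 3.22, 3.80 and 4.82 FPKM in HuRAKO, against 3.54, 4.56 and 6.63 FPKM in control mice. Both overlapped, with log2 fold changes of 0.23 ± 0.17 and -0.24 ± 0.22 (SE).

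**Figure D4:**
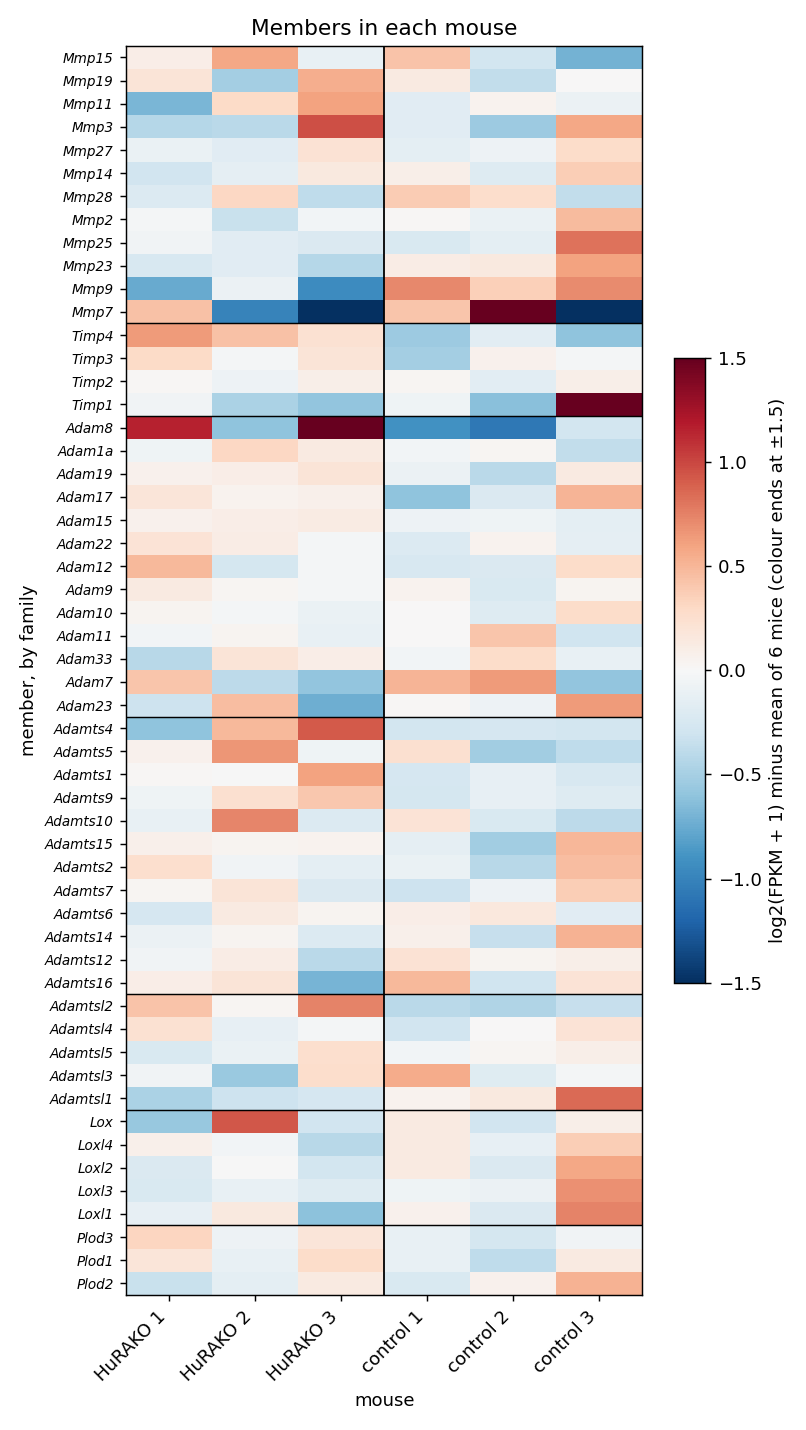
Log2(FPKM + 1) of each tested member (rows, by family) in each mouse (columns, the 3 HuRAKO mice left of the line and the 3 control mice right of it), as the difference from the mean of the 6 mice, with colours ending at a difference of 1.5 either way. Control replicate 3 holds the highest value of 20 of the 54 members, among them Timp1 and all 4 Loxl genes.

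The transcript table holds the same libraries split by transcript, so its calls are no separate evidence for the direction of a gene. Of 86 transcripts listed for the members, 77 were tested, with 22 members having more than 1 transcript. Timp4-201, Adamtsl2-201, Adam8-201 and Adam8-202 were called higher (5.19% of the tested member transcripts, beside 2.31% of all transcripts), and Mmp9-201 was called lower (1.30%, beside 2.28%). By adjusted p from limma, 0 member transcripts passed, and 14 of 23233 transcripts did (0.0603%). Mmp23-201 missed the fold, with a log2 fold change of -0.53 ± 0.21 (SE, limma unadjusted p = 0.0477, adjusted p = 0.757). Without HuRAKO replicate 3 or control replicate 2 the transcripts called higher were 2, and without control replicate 1 those called lower were 5. With the replicate number as a block 2 member transcripts were called lower, since Adam23-201 joined.

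Both listed Adam8 transcripts were higher, the second more so. Adam8-202 had 11.2, 2.03 and 14.5 FPKM in HuRAKO, against 0.425, 0.715 and 1.86 FPKM in control mice. Here the groups did not overlap, although HuRAKO mouse 2 was only just above control mouse 3 (log2 fold change 2.12 ± 0.66, SE, limma unadjusted p = 0.0185, adjusted p = 0.681). Adam8-201 had 4.40, 2.48 and 3.79 FPKM in HuRAKO, against 2.49, 0.699 and 1.40 FPKM in control mice, and HuRAKO mouse 2 and control mouse 1 had nearly the same value. Each of the Adam8 transcripts lost its call in 5 of 15 alternatives. Whether both transcripts differed in their response was not tested. Adamtsl2-201 had 2.98, 1.74 and 2.59 FPKM in HuRAKO, against 0.573, 0.406 and 0.648 FPKM in control mice. Its groups were well apart (log2 fold change 1.14 ± 0.19, SE, limma unadjusted p = 0.000999, adjusted p = 0.314).

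The 4 listed Adamtsl1 transcripts were low, and none was called. Adamtsl1-203 had 0.456, 0.550 and 0.475 FPKM in HuRAKO, against 0.585, 1.95 and 3.02 FPKM in control mice. Adamtsl1-201 had 0.222, 0.514 and 0.597 FPKM in HuRAKO, against 0.723, 0.931 and 1.63 FPKM in control mice. Neither overlapped between the groups, and both missed an unadjusted p of 0.05 (limma unadjusted p = 0.0538 and unadjusted p = 0.0540, adjusted p = 0.757 for both). The share of all transcripts without overlap is not given here, so lack of overlap in a transcript is a description only.

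**Figure D5:**
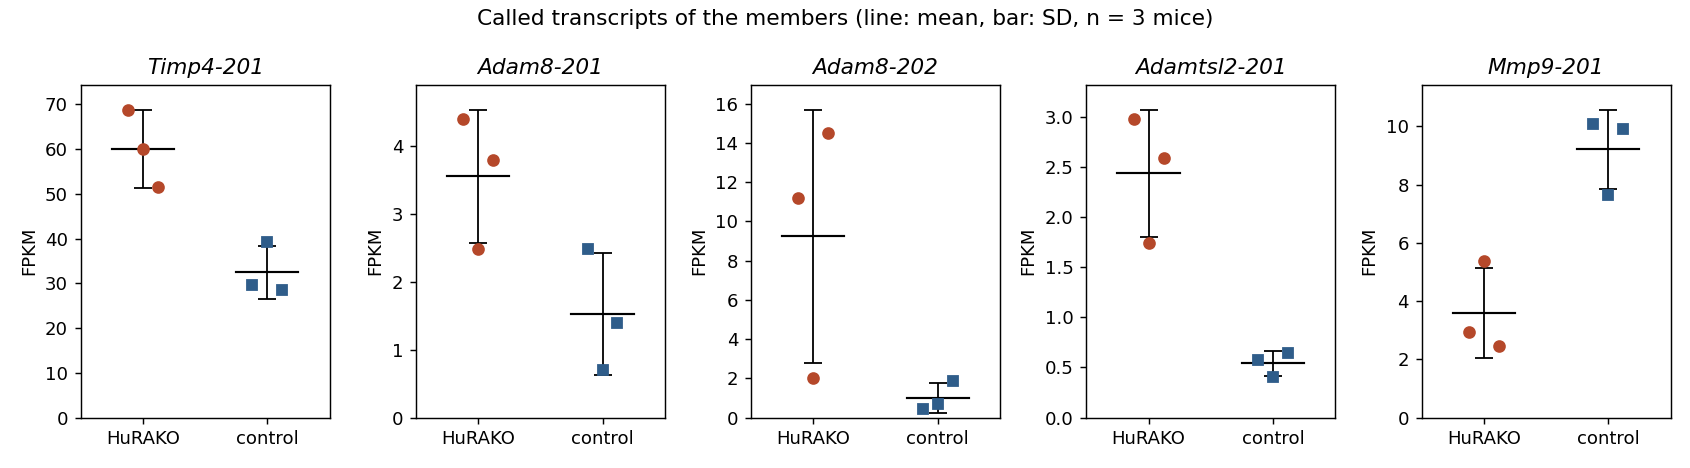
FPKM (y axis, from 0) of the 5 called member transcripts, with 1 point for each mouse (circles, HuRAKO; squares, control), a line at the mean and bars of 1 SD (n = 3). Timp4-201, Adam8-202, Adamtsl2-201 and Mmp9-201 separate the groups, and Adam8-201 does not, since HuRAKO mouse 2 (2.48 FPKM) lies just below control mouse 1 (2.49 FPKM).

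Other genes of matrix turnover (plasminogen activators and serpins, cathepsins, procollagen processing and prolyl hydroxylation, transglutaminases and Htra proteases) gave a single call. Of 61 on this list 54 were listed and tested, with a median log2 fold change of -0.03 (-0.01 over all tested genes), 0 called higher (1.27% of all genes) and 1 called lower (1.35% of all genes). Tgm1, a transglutaminase of epithelia, was that gene, with 0.415, 0.314 and 0.749 FPKM in HuRAKO, against 0.862, 0.985 and 2.11 FPKM in control mice (log2 fold change -0.61 ± 0.23, SE, limma unadjusted p = 0.0336, adjusted p = 0.585). An unadjusted p under 0.05 was reached by 5 of 54, beside 8.03% of all genes, which is near that share, so the following genes are given as values only. Plat, tissue plasminogen activator, had 7.26, 8.49 and 5.65 FPKM in HuRAKO, against 10.4, 9.60 and 11.8 FPKM in control mice, without overlap and with a log2 fold change of -0.52 ± 0.16 (SE). P4ha2, a prolyl hydroxylase subunit of collagen synthesis, had 3.24, 4.46 and 4.16 FPKM in HuRAKO, against 2.54, 2.87 and 2.95 FPKM in control mice, also without overlap. Htra4, a secreted serine protease, and Pcolce2, an enhancer of procollagen C-propeptide removal, had log2 fold changes of 0.41 ± 0.16 and 0.56 ± 0.21 (SE). For Pcolce2, not called on the log2(FPKM + 1) scale, the ratio of mean FPKM was 1.53. With the replicate number as a block, 1 gene of the list, the collagenolytic cathepsin Ctsk, was called higher.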

How the data were processed

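RNA-seq of epididymal fat was analysed in 3 HuRAKO and 3 control mice, grouped by the genotype in the labels. FPKM values for genes and for transcripts were deposited by the authors, 1 column per mouse. The submitters' processing notes name Bowtie 0.12.2 and GRCm38, while the program for FPKM and its use of strand are not given in the sources used here. Labels and methods differ on library kit and instrument. All 6 value columns of each table were used and 0 left out, and 1 emptied line per table is not analysed here. Sequencing depth is unknown and counting intervals could not be formed. Exons of 19 of the 55 members overlap another gene, and reads there may be shared.

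Values were taken as log2(FPKM + 1), features with a mean of at least 0.5 FPKM were fitted over all mice with limma (version 3.58.1, R version 4.3.3), and its p-values (two-sided) were adjusted by Benjamini-Hochberg over 12847 genes or 23233 transcripts. The fit was tested on simulated data in which known changes were placed only in features of higher level. Adamtsl2, Adamtsl1, Mmp9 and Adam8 lie below that level, so the test does not cover changes at theirs. Separate mice were assumed from the labels of separate samples. The authors' thresholds (unadjusted p under 0.05 and fold over 1.5) defined calls. Summaries and plots were made in Python 3.11.15 (matplotlib 3.10.9, scipy 1.17.1, pandas 2.3.3, numpy 2.4.6).

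Members, gene lists and tests were chosen with earlier results of these data known. Named were all tested Timp, Lox, Loxl and Plod genes, the 5 highest of each other family, members with an unadjusted p under 0.05 or without overlap, and listed other genes with an unadjusted p under 0.05. Other members were named after their values were seen. Cell type markers were read as summed FPKM. Lymphocyte markers summed to 4.72 to 13.1 FPKM in HuRAKO and 4.58 to 21.5 FPKM in control mice, and Adam7 was the only tested one of 7 epididymal markers.

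Both groups have mice numbered 1, 2 and 3, with no label on the meaning of a number. Deviations of same-numbered mice from their group means correlated over genes with r = 0.101, 0.175 and 0.220, each over 0.1, and HuRAKO replicate 2 with control replicate 1 with r = 0.106. The numbers were therefore tried as a replicate block. Other alternatives were a pseudocount of 0.1, no filter or a filter at 2 FPKM, FPKM rescaled to a common sum, quantile normalization, no variance moderation, trended and robust moderation, array weights, and leaving out each mouse. The common sum was larger than the summed FPKM of any mouse and the pseudocount of 1 was kept. Rescaling therefore also made the pseudocount smaller beside the values.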

Additional observations from a re-analysis of the deposited data

How the results depend on the processing

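Of 655 values of 44 single genes and transcripts under 15 alternatives, 603 kept direction and call, 25 lost a call or threshold, 12 gained one and 15 reversed. The cause was not tested. Called lower among the member genes were 1 without moderation and 1 with array weights, since Adamtsl1 dropped out, and 2 to 4 without single mice. Called higher were 2 to 4 without single mice. Of the member transcripts, 2 were called higher without moderation and 2 to 4 without single mice. Called lower were 3 with a pseudocount of 0.1, 2 each with no filter, rescaled FPKM, quantile normalization and array weights, and 1 to 5 without single mice, the 5 without control replicate 1. The other matrix genes gave 1 called higher with a pseudocount of 0.1, rescaled FPKM or array weights and 0 to 2 without single mice (2 without HuRAKO replicate 2, control replicate 1 or control replicate 3). They gave 0 called lower with a filter at 2 FPKM, quantile normalization, no moderation or array weights and 0 to 2 without single mice (0 without HuRAKO replicate 1 or control replicate 3). With the replicate block, 2 member transcripts were called lower and 1 other matrix gene higher, and no call of a member gene changed. Over all genes, calls were 163 higher and 174 lower, against 234 and 329 with a pseudocount of 0.1, 273 and 268 with rescaled FPKM, 102 and 111 without moderation, and 204 and 314 without control replicate 1. Rescaled FPKM also had a smaller pseudocount beside the values, so its counts do not show the effect of equal sums alone. The Adam10 log2 fold change was 0.03 with array weights and -0.17 to 0.06 without single mice. Without single mice the ranges that crossed 0 were -0.04 to 0.51 for Adam17, -0.02 to 0.45 for Adamts10, -0.17 to 0.27 for Adamts2, -0.08 to 0.17 for Adamtsl4, -0.19 to 0.05 for Adamtsl5, -0.41 to 0.34 for Lox, -0.09 to 0.44 for Mmp19 and -0.05 to 0.07 for Timp2. Mmp23 was called with a pseudocount of 0.1 and without HuRAKO replicate 1 or 2 or control replicate 1 or 2. Adamtsl2 was not tested at a filter of 2 FPKM. Unknown depth limits low members such as Adamtsl2, Adamts3 and Mmp25.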
